A study of Mus musculus with 2 samples.

Results

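Cytotoxic lymphocytes kill by releasing granules that hold granzymes and perforin and by the death ligand FasL, and they also secrete the cytokine interferon gamma. The 10 genes described here carry that program: the granzymes Gzma, Gzmb and Gzmk, the pore-forming Prf1, the granule membrane protein Nkg7, the cytokine Ifng, the death ligand Fasl, the T-box transcription factors Tbx21 (T-bet) and Eomes, and the lectin-like receptor Klrg1. They were taken by name, were all found among the 32285 genes of the count tables, and were followed through CD8 T cells, CD4 T cells, other T cells, natural killer (NK) cells and all remaining cells of injured mouse kidney.

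The samples were 2 single-cell RNA libraries of kidney, 1 per group and both of batch 1 in the labels, taken 14 days after ischemia reperfusion injury (IRI) caused by clamping 1 renal artery, with 4 tamoxifen injections given after the injury. The control group is labelled only as Cre-, and the labels do not say which other alleles it carries. The haplodeficient group is labelled Cdh5-CreERT2; Phd3f/+: 1 floxed copy of Phd3 (Egln3, an oxygen-sensing prolyl hydroxylase) under a tamoxifen-activated Cre driven by the promoter of Cdh5, an endothelial gene. Cdh5 itself was at 672 and 652 CPM, the UMIs (unique molecular identifiers, 1 per captured RNA molecule) of a gene scaled to 1e6 UMIs in all, in endothelial-marker cells of the control and haplodeficient libraries and at 20.8 and 24.8 CPM in the T and NK classes below. The labels do not give the number of animals in a library. With 1 library per group there is no replicate spread and no test: intervals are 95% and cover counting error only, and a difference between libraries cannot be told apart from a difference between animals, preparations or dissociations.

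Cytotoxic granules are loaded in CD8 T cells after activation, and in NK cells during their development. Gzmb and Prf1 are the classic killing pair: perforin opens the target membrane and granzyme B starts apoptosis. Gzma and Gzmk are tryptase-like granzymes, and Nkg7 takes part in granule release. T-bet and Eomes drive Ifng and granule genes. Klrg1 marks terminally differentiated effector cells and some regulatory T cells. In injured kidney such cells belong to the infiltrating and resident lymphocytes.

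The sequences just before the start sites are given for the 5 genes whose window holds a match to a T-box or Runx core, because T-bet, Eomes and Runx factors are known regulators of this program. Promoter windows came from RefSeq on GRCm38.p6 and were read as the 250 bases before the start, 5′ to 3′ on the gene's strand. Of the 10 genes, 9 had a window and Klrg1 was not matched. Capitals mark GTGTGA (T-box core) or TGTGGT (Runx core) on either strand, so that their reverse complements TCACAC and ACCACA are also in capitals. The 2 motifs can overlap at their ends, and did not in these windows.
Gzma, chr13:113100982-113101231, minus strand: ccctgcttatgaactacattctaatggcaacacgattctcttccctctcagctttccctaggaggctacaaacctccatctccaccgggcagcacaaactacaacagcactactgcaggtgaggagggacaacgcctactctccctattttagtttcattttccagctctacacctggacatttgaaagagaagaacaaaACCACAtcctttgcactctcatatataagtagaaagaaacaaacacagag
Gzmk, chr13:113180966-113181215, minus strand: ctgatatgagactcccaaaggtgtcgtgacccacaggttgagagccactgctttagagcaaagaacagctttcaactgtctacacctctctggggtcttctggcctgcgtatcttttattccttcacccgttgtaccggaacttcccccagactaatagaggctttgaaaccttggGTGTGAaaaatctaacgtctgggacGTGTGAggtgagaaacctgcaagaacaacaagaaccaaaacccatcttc
Gzmb, chr14:56262335-56262584, minus strand: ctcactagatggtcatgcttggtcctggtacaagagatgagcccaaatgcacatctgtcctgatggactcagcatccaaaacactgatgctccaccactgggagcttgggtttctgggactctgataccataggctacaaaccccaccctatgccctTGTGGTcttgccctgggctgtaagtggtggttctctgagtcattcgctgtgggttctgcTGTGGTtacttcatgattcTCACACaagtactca
Prf1, chr10:61297586-61297835, plus strand: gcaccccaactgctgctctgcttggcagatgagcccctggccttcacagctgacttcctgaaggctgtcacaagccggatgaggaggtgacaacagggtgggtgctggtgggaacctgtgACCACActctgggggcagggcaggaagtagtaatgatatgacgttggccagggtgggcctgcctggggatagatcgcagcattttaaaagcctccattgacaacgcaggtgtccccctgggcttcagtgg
Nkg7, chr7:43436888-43437137, plus strand: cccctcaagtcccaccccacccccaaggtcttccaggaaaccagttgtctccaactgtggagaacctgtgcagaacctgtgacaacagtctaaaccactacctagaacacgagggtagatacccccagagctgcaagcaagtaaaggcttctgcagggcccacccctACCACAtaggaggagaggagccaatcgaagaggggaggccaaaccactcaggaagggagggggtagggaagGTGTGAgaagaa
The Gzmk window held 2 T-box matches, ending 68 and 43 bases before the start, and no Runx match. The neighbouring Gzma held no T-box match and 1 Runx match, ending 44 bases before the start. Gzmb held 1 T-box match 9 bases before the start and 2 Runx matches at 87 and 28 bases. Nkg7 held 1 of each, at 6 and 77 bases, and Prf1 held 1 Runx match at 124 bases. The windows of Ifng, Fasl, Tbx21 and Eomes held neither. Of 32817 distinct windows of the same length, 12.3% held the T-box core and 14% the Runx core, which is the share to read single matches against. A match describes letters, not binding. In the gene annotation (GENCODE M21, mm10), Gzma spans chr13:113093825-113100981 and Gzmk chr13:113171608-113225908, both on the minus strand, with 70626 bases and 3 annotated genes between them.

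Cells are barcodes that reached 500 UMIs and 200 genes and did not pass 50% of UMIs from mitochondrial genes. This left 9452 control cells and 10026 haplodeficient cells, with medians of 9160 and 5861.5 UMIs, and 28 cell barcodes occurred in both libraries. CD8 cells carried a Cd3e UMI, a Cd8a or Cd8b1 UMI and no Cd4 UMI, and came to 57 control and 407 haplodeficient cells. CD4 cells carried Cd3e and Cd4 without Cd8a or Cd8b1 and numbered 29 and 172. The other Cd3e cells, 74 and 421, had neither co-receptor in 73 and 408 cases, and NK cells (an Ncr1 UMI, no Cd3e UMI) numbered 14 and 47. Median depth was alike across these classes, at 2788 to 3634.5 UMIs per cell for control classes and 2846 to 3422 for haplodeficient classes. Mean depth varied more, from 4144 UMIs in control CD8 to 6183 in control other Cd3e cells and from 4827 in haplodeficient CD4 to 6028 in haplodeficient other Cd3e cells. Markers of the classes were present: Cd3g was found in 98.2% and 96.1% of CD8 cells, Tyrobp in 92.9% and 93.6% and Klrb1c in 64.3% and 72.3% of NK cells, and Trac in 7.14% and 6.38% of NK cells. Cd3d, another T-cell gene, was found in none of the control and 19.1% of the haplodeficient NK cells. Egln3, the targeted gene, was at 22.6 CPM (17.2 to 29) in endothelial-marker cells of the control and 19.8 (16.7 to 23.4) in those of the haplodeficient library; its 3′ UMIs need not come from the deleted part.

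RNA of other cell types also moved with the library, and these values stand beside every comparison between libraries that follows. In CD8 cells the 8 macrophage and monocyte markers summed to 334 CPM in the control (4 of 8 genes at 0) and 2641 CPM in the haplodeficient library (none at 0). The 6 neutrophil markers went from all at 0 to 399 CPM, and the 8 proximal tubule markers from 1033 to 156 CPM. The macrophage markers went from 50.9 to 1139 CPM in CD4, from 872 to 1116 CPM in other Cd3e and from 46.3 to 4770 CPM in NK cells. The 12 dissociation stress genes (Fos, Jun and similar early response genes) summed higher in the haplodeficient library in all 4 classes: 3459 against 7987 CPM in CD8, 4438 against 9386 in CD4, 6661 against 11551 in other Cd3e and 5513 against 8647 in NK cells. The part of these differences in the results was not tested, except that ratios were recomputed without barcodes dominated by another cell type's markers.

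Summed over the 10 genes, NK and CD8 cells stood far above CD4 and other Cd3e cells, and the place of NK cells at the top rested on Gzma. The sum was 5004 CPM in control and 4396 CPM in haplodeficient NK cells, 2735 and 2123 CPM in CD8 cells, 605 and 735 CPM in CD4 cells, and 201 and 745 CPM in other Cd3e cells. Remaining leukocytes (a Ptprc UMI) were at 11.2 and 57 CPM, and cells without Ptprc at 1.17 and 4.05 CPM. Gzma made up 55.2% of the control and 58.9% of the haplodeficient NK sum. Without it the sums were 2239 CPM (1890 to 2635) in NK against 2421 CPM (2227 to 2628) in CD8 cells of the control, and 1809 CPM (1655 to 1973) against 2035 CPM (1976 to 2095) in the haplodeficient library. CD4 cells were below both in either library, and other Cd3e cells stood below CD4 cells in the control and level with them in the haplodeficient library.

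**Figure D1:**
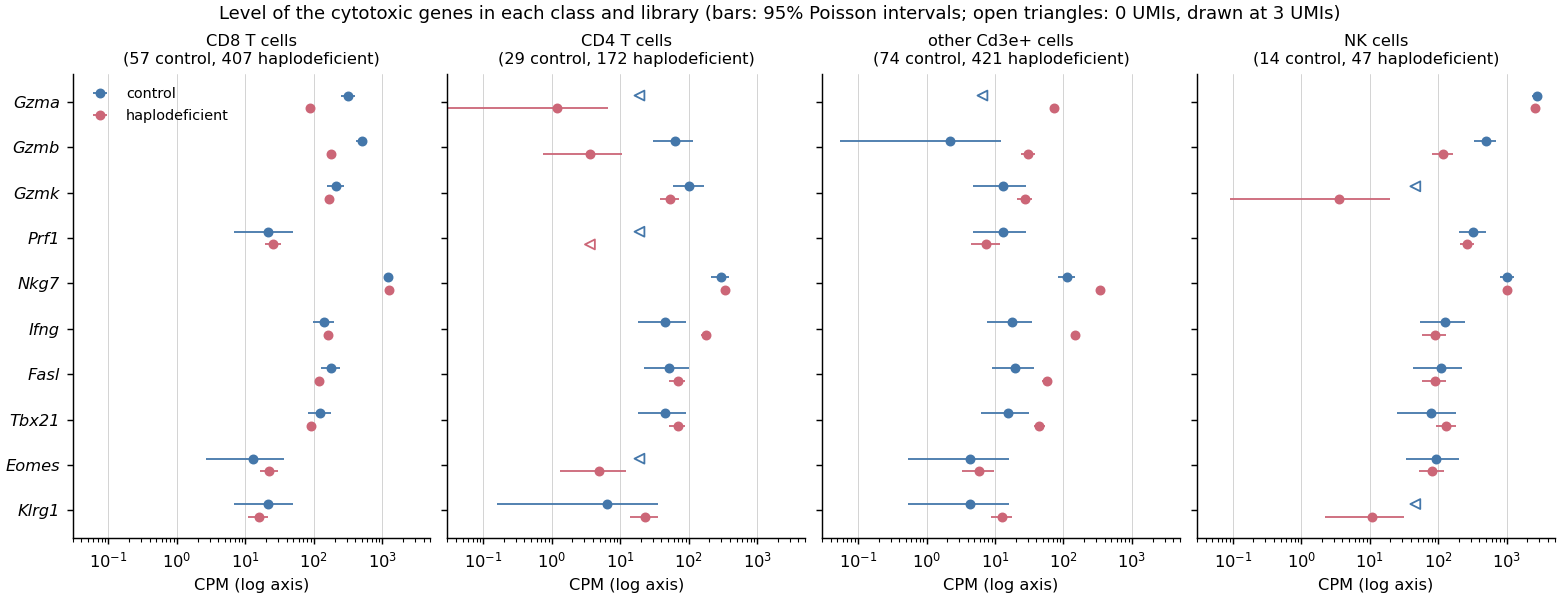
CPM (log axis) of the 10 cytotoxic genes in CD8, CD4, other Cd3e+ and NK cells, with 1 point per library (blue control, red haplodeficient), 95% Poisson intervals as bars, and genes at 0 UMIs as open triangles at the level of 3 UMIs. Nkg7 lies between 1019 and 1254 CPM in CD8 and NK cells of both libraries, Gzma is at 2764 and 2587 CPM in NK cells and at most 313 CPM in the others, and Gzmk is at 212 and 166 CPM in CD8 cells and at 0 or 1 UMI in NK cells.

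Nkg7, the granule membrane protein, was the most widely detected of the genes. Its level was 1211 CPM (interval 1074 to 1359) in control and 1254 CPM (1208 to 1302) in haplodeficient CD8 cells, and 1019 CPM (788 to 1297) and 1020 CPM (905 to 1145) in NK cells. CD8 and NK levels overlapped in the control and stood apart by a ratio of 0.813 (0.718 to 0.919) in the haplodeficient library. At least 1 Nkg7 UMI was found in 94.7% of control and 96.3% of haplodeficient CD8 cells, and in 92.9% and 87.2% of NK cells. CD4 cells held less, 293 and 334 CPM, in 31% and 43.6% of cells. As a background, 0.0839% of 3577 control and 1.37% of 586 haplodeficient cells with proximal tubule markers, at medians of 11989 and 9701.5 UMIs, had an Nkg7 UMI.

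Gzma, the tryptase-like granzyme A, was an NK-weighted granzyme. It was at 2764 CPM (2374 to 3200) in control and 2587 CPM (2403 to 2782) in haplodeficient NK cells, in 8 of 14 and 31 of 47 cells. In CD8 cells it was at 313 and 87.8 CPM, so that NK cells exceeded CD8 cells 8.82 times (6.69 to 11.7) among control and 29.5 times (25.1 to 34.7) among haplodeficient cells. The control ratio rested on few cells: 1 NK cell held 125 of the 179 Gzma UMIs, and without it the ratio was 2.93 (2.03 to 4.22). Of the 74 Gzma UMIs in control CD8 cells, 79.7% lay in 3 cells. CD4 cells had 0 and 1 UMI of Gzma in 29 and 172 cells. The Gzma level of 1.2 CPM in haplodeficient CD4 cells was below that of the near-empty barcodes of 1 to 100 UMIs in the same library, 28.7 CPM. In the control that cell-free level was 1.26 CPM.

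Gzmk, the neighbour of Gzma, was found in T cells and hardly in NK cells. It was at 212 CPM (157 to 279) in control and 166 CPM (149.9 to 184) in haplodeficient CD8 cells, in 42.1% and 44.5% of them, and at 102 and 53 CPM in CD4 cells. NK cells held 0 UMIs in 14 control cells and 1 UMI in 47 haplodeficient cells. The 0 of 14 control cells allows a share of up to 23.2% of NK cells with a captured Gzmk UMI (Clopper-Pearson), and says nothing of cells that express Gzmk below capture. The NK level was at or below the cell-free level in the haplodeficient library, 3.55 against 5.82 CPM.

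Gzmb, the apoptosis-starting granzyme B, was at 504 CPM in control and 180.1 CPM in haplodeficient CD8 cells and at 494 and 117 CPM in NK cells. Within each library CD8 and NK levels differed less than 2-fold, with NK-to-CD8 ratios of 0.981 (0.642 to 1.46) and 0.651 (0.442 to 0.929). CD4 cells had 10 UMIs in 2 control cells, 8 of them in 1 of the 2 control CD4 cells with a Foxp3 UMI, and 3 UMIs in 3 of 172 haplodeficient cells.

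Prf1, the perforin gene, was low in CD8 cells and high in NK cells. It stood at 21.2 CPM (6.87 to 49.4) and 25.4 CPM (19.2 to 32.9) in CD8 cells and at 324 CPM (201 to 496) and 267 CPM (209.7 to 334) in NK cells. NK exceeded CD8 levels 15.3 times (5.62 to 52) among control and 10.5 times (7.33 to 15.1) among haplodeficient cells. The control ratio rested on 21 NK and 5 CD8 UMIs. Of the 21, 11 lay in 1 cell, and without it the ratio was 8.04 (2.5 to 30.0). No Prf1 UMI was found in any of the 29 and 172 CD4 cells.

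Contrasts between classes were read with 1 rule of size in each library. Eligible genes averaged 50 CPM or more over both sides with 30 UMIs or more in all. A gene was past the rule when its level differed at least 2-fold, with 5 CPM added, and the Poisson intervals did not overlap. Between NK and CD8 cells, 7 of the 10 genes were eligible in both libraries, of which Gzma was higher in NK cells and Gzmk lower. Over all 1659 genes eligible there, 1.45% were higher and 2.59% lower in NK cells in both libraries. Between CD8 and CD4 cells 6 were eligible, and Gzmb and Nkg7 were higher in CD8 cells and none lower, against 0.737% and 0.967% of 2171 genes. Between NK and CD4 cells 3 were eligible, Gzma, Gzmb and Nkg7, and were higher in NK cells, where 2.13% of 1172 genes were higher and 4.52% lower. Gzma and Gzmb, with 1 and 3 UMIs in haplodeficient CD4 cells, reached the minimum level through the NK cells, so nothing is read from that count. Gzmk, with 0 and 1 UMI in NK cells, reached it against NK cells through the CD8 cells. Gzmb reached it against haplodeficient CD4 cells through the CD8 cells too, so nothing is read from the place of either gene in those counts.

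Ifng, the macrophage-activating cytokine, was at 139.7 and 161 CPM in CD8 cells, in 29.8% and 31.2% of cells, and at 124 and 88.9 CPM in NK cells, in 2 of 14 and 5 of 47 cells. NK-to-CD8 ratios were 0.884 (0.353 to 1.95) for control and 0.554 (0.353 to 0.831) for haplodeficient cells, under the 2-fold rule. Of the 25 Ifng UMIs in haplodeficient NK cells, 13 lay in 1 cell. In CD4 cells its control level was 44.6 CPM and its haplodeficient level 178 CPM.

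Fasl and Tbx21 were found in all 4 classes. Fasl, the death ligand, was at 178 and 119 CPM in CD8, 50.9 and 68.7 CPM in CD4, 19.7 and 57.1 CPM in other Cd3e and 108 and 88.9 CPM in NK cells. Tbx21 was at 123 and 91.9 CPM in CD8, 44.6 and 68.7 CPM in CD4, 15.3 and 44.5 CPM in other Cd3e and 77.2 and 131 CPM in NK cells. In NK against CD8 cells the intervals of both ratios included 1 in both libraries.

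Eomes, the other T-box factor, was the NK-weighted one. It was at 92.7 CPM (34 to 202) and 81.7 CPM (51.8 to 123) in NK cells against 12.7 and 22.3 CPM in CD8 cells, with NK-to-CD8 ratios of 7.3 (1.56 to 45.1) and 3.67 (2.14 to 6.12). Eomes and Prf1 were both past the rule in this contrast in the haplodeficient library. In the control they met the minimum level but had 9 and 26 UMIs, under the 30 needed. CD4 cells had 0 control and 4 haplodeficient Eomes UMIs.

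Klrg1 had the fewest UMIs in kept cells of the 10 genes, 13 and 107. It had 5 and 35 UMIs in CD8 cells (21.2 and 15.6 CPM), 1 and 19 in CD4 cells (6.37 and 22.9 CPM), 2 and 32 in other Cd3e cells and 0 and 3 in NK cells. In haplodeficient CD4 cells it was compared between the 11 cells with a UMI of Foxp3, the factor of regulatory T cells, and the rest. The 11 cells held 10 of 19 Klrg1 UMIs at 142 CPM (68 to 261), in 5 of the 11 cells, against 11.8 CPM (5.42 to 22.5) in the 161 cells without Foxp3, in 6 of these. Of those 10 UMIs 6 lay in 1 cell, and without it the level was 61.4 CPM (16.7 to 157), whose interval overlaps that of the cells without Foxp3. The Foxp3 cells were deeper, with a median of 5908 against 3050 UMIs, and after thinning every cell to 1000 UMIs the counts were 3 of 11 and 2 of 161 cells. The same 11 cells had no UMI of Ifng, against 148 in the 161 others, and no UMI of Gzmk, against 44. Those Ifng UMIs lay in 44 cells and those of Gzmk in 25. With only 11 Foxp3 cells, finding 0 does not set their share apart.

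How many of the 10 genes a cell showed was compared after thinning each cell to 1000 UMIs at random, leaving out 2 control and 15 haplodeficient shallower T cells in all. CD8 cells with at least 3 of the genes were 18 of 57 (31.6%, 19.9 to 45.2) among control and 97 of 402 (24.1%) among haplodeficient cells. The NK shares were 21.4% (4.66 to 50.8) of 14 and 44.7% (30.2 to 59.9) of 47 cells. CD4 shares were 3.45% and 3.49%, and those of other Cd3e cells 2.78% (0.338 to 9.68) and 9% (6.42 to 12.2). Within each class the intervals of the libraries overlapped after thinning, and CD8 shares lay above CD4 shares in both. Without thinning the shares were 66.7% and 66.3% in CD8 and 20.7% and 24.4% in CD4 cells, and came to 7 of 14 and 36 of 47 (76.6%) NK cells, with overlapping intervals. In other Cd3e cells the unthinned shares were 8.11% of 74 and 24% of 421 cells and their intervals did not overlap, at median depths of 2949 and 2846 UMIs.

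**Figure D2:**
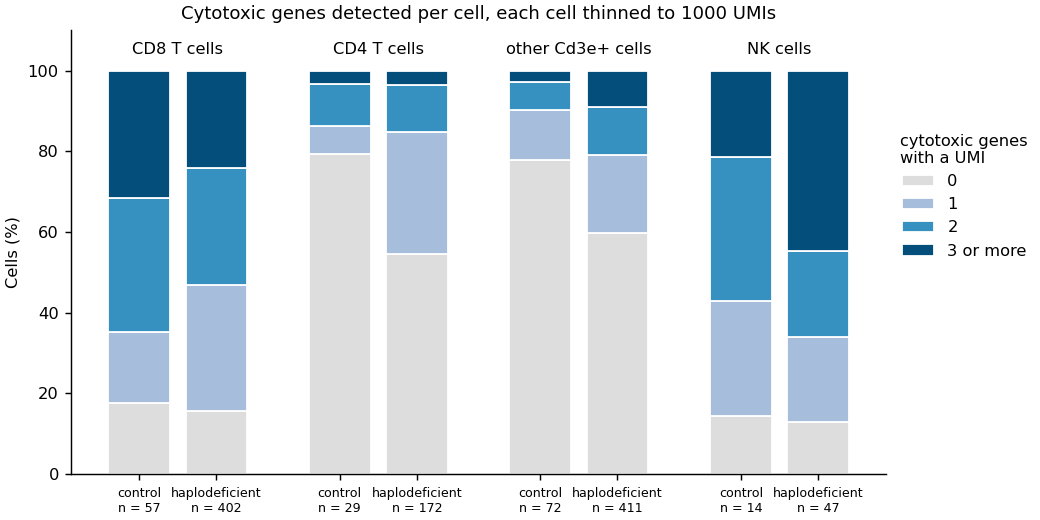
Share of cells (%) with a UMI of 0, 1, 2 or at least 3 of the 10 cytotoxic genes in each class and library, after thinning each cell to 1000 UMIs; n is the number of cells. In CD4 and other Cd3e cells most cells show none of the genes, and in CD8 and NK cells most show at least 1.

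Between the libraries, Gzma and Gzmb were lower in haplodeficient CD8 cells, and the other granule genes were not past the rule. Gzma went from 74 UMIs in 57 control cells, 313 CPM (246 to 393), to 197 UMIs in 407 haplodeficient cells, 87.8 CPM (76 to 101). This is a log2 ratio of -1.78, with 5 CPM added as in all log2 ratios given here, and a ratio of 0.28 (0.214 to 0.371). Gzmb went from 119 UMIs, 504 CPM (417 to 603), to 404 UMIs, 180.1 CPM (163 to 199), a log2 ratio of -1.46 and a ratio of 0.358 (0.291 to 0.442). Nkg7 had a ratio of 1.04 (0.917 to 1.17), Gzmk 0.786 (0.584 to 1.08) and Prf1 1.2 (0.486 to 3.84). Fasl had a ratio of 0.667 (0.48 to 0.947), under the 2-fold rule. Of 7 eligible genes, 0 were higher and 2 lower, against 4.75% of 3287 eligible genes higher and 4.38% lower. Their median log2 ratio was -0.40, and that of all eligible genes was -0.04.

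A few control cells held much of the granzyme RNA of their class. Of the 74 Gzma UMIs in control CD8 cells, 79.7% lay in 3 cells, and the fullest cell held 31. Only 8 of 57 control CD8 cells (14%, 6.26 to 25.8) had a Gzma UMI, against 26 of 407 (6.39%, 4.22 to 9.22). For Gzmb, 3 control cells held 47.1% of UMIs, and the share of cells was 35.1% (22.9 to 48.9) against 28.7% (24.4 to 33.4). After thinning to 1000 UMIs the shares were 8.77% (2.91 to 19.3) against 3.73% (2.1 to 6.08) for Gzma and 26.3% (15.5 to 39.7) against 18.2% (14.5 to 22.3) for Gzmb, with overlapping intervals. Without the fullest control cell the log2 ratio was -1.04 for Gzma and -1.11 for Gzmb, both still past the rule. In UMIs thinned per cell, the log2 ratio of Gzmb became -0.80 and no longer passed the rule, and that of Gzma became -1.17 and still did. Without barcodes in which another cell type's markers outnumbered the T and NK markers, they were -1.51 for Gzma and -1.06 for Gzmb. Cell cycle genes moved with them, at 1325 CPM summed in control and 839 CPM in haplodeficient CD8 cells. In the 16 control CD8 cells with a Mki67 or Top2a UMI, Gzmb was at 695 CPM, and in the 41 without at 388 CPM. In the haplodeficient library the order was turned, with 112 CPM in 78 such cells and 214 CPM in 329 others. With 47.1% of the control Gzmb UMIs in 3 cells, the control order can rest on a few cells.

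**Figure D3:**
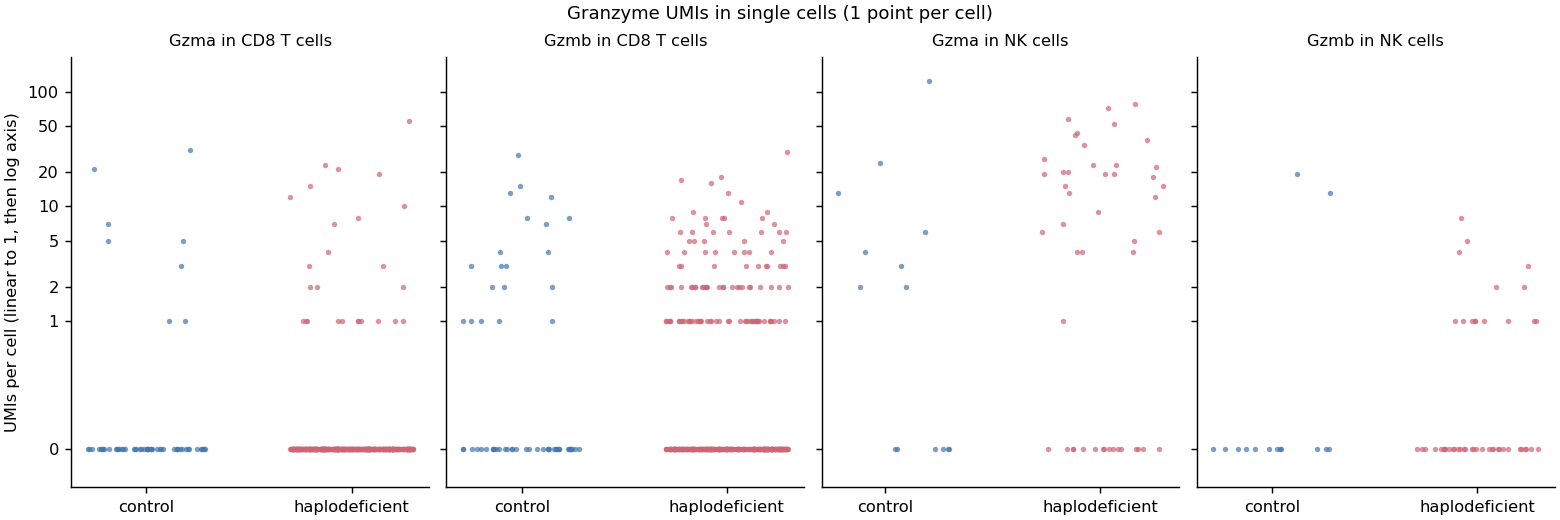
UMIs of Gzma and Gzmb per cell in CD8 and NK cells, 1 point per cell, by library; the vertical axis is linear to 1 and logarithmic above. In control cells the upper values come from a few cells, such as 31 Gzma UMIs in 1 CD8 cell and 125 in 1 NK cell, while most CD8 cells lie at 0 in both libraries.

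In NK cells Gzmb was also lower in the haplodeficient library, from 494 CPM (338 to 698) to 117 CPM (80.7 to 165), a log2 ratio of -2.03. All 32 control UMIs came from 2 of 14 cells, whereas 15 of 47 haplodeficient cells held 33 UMIs, and the shares of cells, 14.3% (1.78 to 42.8) and 31.9% (19.1 to 47.1), overlapped. After thinning, the log2 ratio was -1.03 and did not pass the rule. Without the fullest control cell, which held 19 of the 32 UMIs, it was -0.89 and did not pass it either. Gzma had a ratio of 0.936 (0.794 to 1.11), but 1 control cell held 125 of its 179 UMIs. Of 7 eligible genes 0 were higher and 1 lower, against 7.12% of 1967 genes higher and 3.81% lower. The summed level of the 10 genes had a log2 ratio of -0.19, and turned to 0.13 after thinning and to 0.28 without barcodes dominated by other markers.

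In CD4 cells Ifng was the gene past the rule. It was at 44.6 CPM (17.9 to 91.8) from 7 UMIs in 5 of 29 control cells and at 178 CPM (151 to 209) from 148 UMIs in 44 of 172 haplodeficient cells, a ratio of 4 (1.89 to 10.1). The shares of cells with a UMI overlapped, 17.2% (5.85 to 35.8) against 25.6% (19.2 to 32.8). After thinning the log2 ratio went from 1.89 to 1.36 and did not pass the rule. In near-empty barcodes Ifng was at 0.314 CPM in the control and 10.0 CPM in the haplodeficient library. Their part in the Ifng ratio was not tested. Nkg7 had a ratio of 1.14 (0.831 to 1.59), Fasl 1.35 (0.64 to 3.27) and Tbx21 1.54 (0.701 to 4). Of 5 eligible genes 1 was higher and 0 lower, against 3.52% of 3348 genes higher and 4.63% lower. Ifng reached the minimum level through the haplodeficient library, so nothing is read from that count. Gzmb, with 10 control and 3 haplodeficient UMIs, was not eligible.

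In other Cd3e cells Nkg7 and Ifng were higher in the haplodeficient library. Nkg7 went from 111 CPM (83 to 147), in 28.4% of cells, to 337 CPM (315 to 360.3), in 41.6%, a ratio of 3.02 (2.28 to 4.09). Ifng went from 17.5 CPM (7.55 to 34.5) in 4 of 74 cells to 149 CPM (135 to 165) in 80 of 421 cells, a ratio of 8.54 (4.29 to 19.9), and both stayed past the rule after thinning. In near-empty barcodes of 1 to 100 UMIs, Nkg7 was at 3.14 CPM in the control against 53.6 CPM, and Ifng at 0.314 against 10.0 CPM, and their part in these ratios was not tested. Nkg7 and Ifng were the 2 eligible genes of the 10, where 4.39% of 3647 genes were higher and 4.20% lower. Ifng, with 8 control UMIs, reached the minimum level through the haplodeficient library, so nothing is read from that count. Gzma had 0 UMIs in 74 control cells and 187 UMIs in 16 of 421 haplodeficient cells, 73.7 CPM, where 3 UMIs in the control would have been 6.56 CPM. Of these UMIs 56.7% lay in 3 cells. Fasl had a ratio of 2.9 (1.49 to 6.48) and Tbx21 of 2.91 (1.37 to 7.4), both under the minimum mean level of 50 CPM.

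The other Cd3e cells were split by gamma delta T cells, whose part in these ratios was not tested. Of the control cells, 12 of 74 had a UMI of Trdc, the gamma delta T-cell receptor constant gene, and of the haplodeficient cells 102 of 421. The 12 control cells held no UMI of any of the 10 genes. The 102 haplodeficient cells had Nkg7 at 124 CPM (95.5 to 158) and Ifng at 7.61 CPM (2.07 to 19.5), against 393 CPM (366 to 421) and 186 CPM (168 to 206) in the 319 cells without Trdc. Among cells without Trdc, control Nkg7 was at 127 CPM (94.6 to 167) and Ifng at 19.9 CPM (8.6 to 39.3), both below the haplodeficient intervals. Control cells of this class also carried Igkc at 5291 CPM and Kap at 6340 CPM, plasma cell and proximal tubule transcripts, against 3.55 and 164 CPM.

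**Figure D4:**
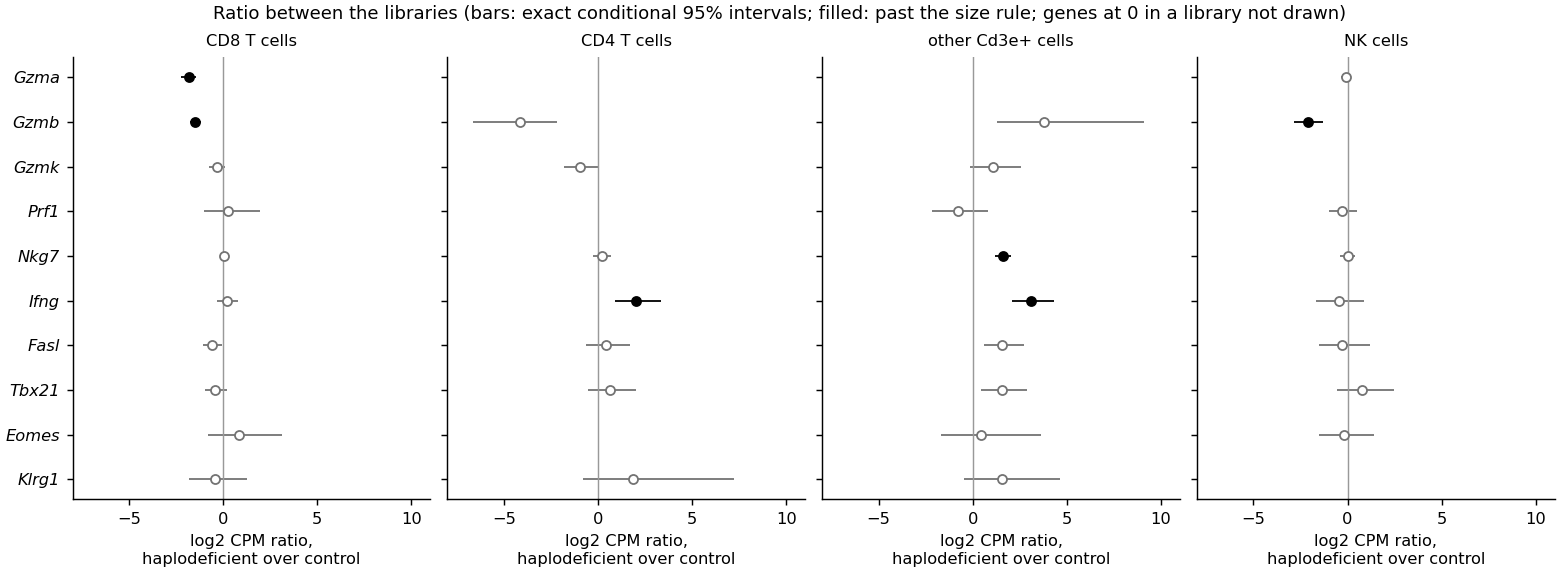
Log2 ratio of CPM, haplodeficient over control, for each cytotoxic gene in the 4 classes, without added CPM, with exact conditional 95% intervals; filled points pass the size rule and genes at 0 UMIs in a library are not drawn. The filled points are Gzma and Gzmb in CD8 cells, to the left of 0, Gzmb in NK cells, also to the left, and Ifng in CD4 cells and Nkg7 and Ifng in other Cd3e+ cells, to the right.

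Within NK cells Gzma, Prf1 and Eomes made up a smaller part of the RNA in cells with markers of tissue residence. Cells with a UMI of Itga1, Cxcr6 or Il7r, genes found in ILC1 and tissue-resident NK cells, made up 5 of 14 control and 20 of 47 haplodeficient NK cells. Gzma was at 332 CPM (159 to 610.1) in these and at 4883 CPM (4174 to 5677) in the 9 other control cells, and at 1256 CPM (1099 to 1430) and 5006 CPM (4576 to 5464) in the 20 and 27 haplodeficient cells. Prf1 was at 0 UMIs against 607 CPM in the control and at 149 CPM (98 to 216) against 481 CPM (354 to 637) in the haplodeficient library. Eomes was at 0 UMIs against 173 CPM, and at 27.6 CPM (8.95 to 64.3) against 180.2 CPM (107 to 285). The cells with the markers were deeper on average, with means of 6029 against 3846 UMIs in the control and 9074 against 3700 in the haplodeficient library, while medians were 3681 against 3588 and 3650 against 3025. In UMIs per cell the haplodeficient values were 11.4 against 18.5 for Gzma, 1.35 against 1.78 for Prf1 and 0.25 against 0.667 for Eomes. After thinning to 1000 UMIs, Gzma was found in 7 of 20 against 22 of 27 haplodeficient cells, with intervals that did not overlap. Prf1 was found in 3 against 8 and Eomes in 1 against 6 of them, with overlapping intervals. In the control, Gzma was found in 2 of 5 against 3 of 9 thinned cells. The macrophage and monocyte markers summed to 6530 CPM in the haplodeficient cells with the markers and 1572 CPM in those without, and their part in these differences was not tested. Tbx21 had overlapping intervals, with 116 CPM (71.6 to 177) against 160.2 CPM (91.6 to 260.1) in the haplodeficient library. In the control, 3 of the 9 cells held 95.9% of Gzma UMIs. Cell by cell, an Eomes UMI was found in 16 of 31 haplodeficient NK cells with a Gzma UMI and in 0 of the 16 without, and in the control in 3 of 8 with Gzma and in none of 6 without. After thinning to 1000 UMIs it was 6 of 29 against 1 of 18 haplodeficient cells.

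Co-detection of granzymes in CD8 cells changed with depth. Of the 117 haplodeficient CD8 cells with a Gzmb UMI, 60 also had Gzmk (51.3%), against 41.7% of those without. In the control 12 of 20 had Gzmk (60.0%), against 32.4%. Of the 26 haplodeficient cells with Gzma, 19 had Gzmk (73.1%), against 42.5% of those without, and in the control 6 of 8 (75%) against 36.7%. After thinning to 1000 UMIs, Gzmk was found in 27.4% of the 73 haplodeficient CD8 cells with Gzmb against 18.8% of those without, and in 5 of 15 with Gzma (33.3%) against 19.9%. In the control 4 of 15 cells with Gzmb (26.7%) had Gzmk against 19.0% of those without, and 1 of 5 with Gzma (20%) against 21.2%.

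Most UMIs of the 10 genes lay in the 4 classes, with exceptions. The share of all UMIs in kept cells that lay in CD8, CD4, other Cd3e and NK cells came to 92.3% for control and 80.5% for haplodeficient Gzma, 93.1% and 82.5% for Gzmb, and 79.9% and 82.1% for Nkg7. It was lowest in the control for Eomes (36.7% of 30 UMIs), Tbx21 (47.1% of 102) and Gzmk (55.4% of 130). Part of the rest lay in cells whose largest marker sum was that of T cells but which had no Cd3e UMI: these 39 control and 260 haplodeficient cells held Nkg7 at 759 and 1014 CPM and Gzmk at 146 and 159 CPM. The 97 and 226 cells with NK markers other than Ncr1 and Eomes as their largest sum held Nkg7 at 30.4 and 36.3 CPM. They had no Ncr1 UMI. Which of those markers, Tyrobp and Klr genes, placed them there was not tested, so they are not read as NK cells. Tbx21 was also found in cells with dendritic cell markers, in 5 of 57 and 6 of 60 cells.

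Some Gzmk UMIs outside the lymphocyte classes lay in endothelial-marker cells, mostly in those with Esm1. Of cells with endothelial markers as their largest marker sum, 19 of 334 control and 30 of 819 haplodeficient cells had a Gzmk UMI, 33 and 44 UMIs in all, while Nkg7 was found in 1 and 6 of these cells and Cd3e, by the definition of the group, in none. Esm1, a secreted proteoglycan gene of activated and tip endothelial cells, was found in 84 and 180 of them. Gzmk was found in 17 of the 84 control cells with Esm1 (20.2%, 12.3 to 30.4) and in 2 of the 250 without (0.8%, 0.097 to 2.86). In the haplodeficient library it was found in 20 of 180 with Esm1 (11.1%, 6.92 to 16.6) and in 10 of 639 without (1.56%, 0.753 to 2.86). In CPM, Gzmk was at 34.3 (23.1 to 48.9) against 1.68 (0.347 to 4.92) in the control and at 13.2 (9.09 to 18.5) against 2.39 (1.19 to 4.27) in the haplodeficient library. Cells with Esm1 were also deeper, with medians of 6794 against 3996.5 and 8468.5 against 4191 UMIs. In the annotation, Esm1 (chr13:113209659-113218098, plus strand) lies wholly inside the span of the longest Gzmk transcript, on the other strand, and the exons of the 2 genes share 0 bases. Reads of one gene counted for the other, and Gzmk transcription in these cells, were not tested. These endothelial-marker cells held 33 of the 130 control and 44 of the 681 haplodeficient Gzmk UMIs.

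**Figure D5:**
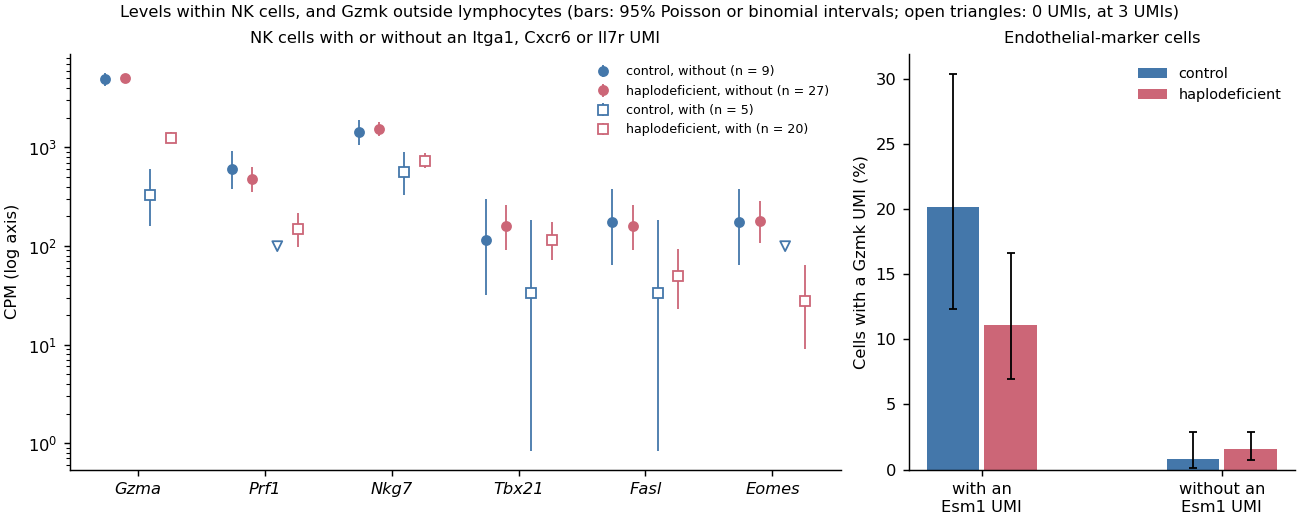
Left, CPM (log axis) of 6 of the genes in NK cells with or without a UMI of Itga1, Cxcr6 or Il7r, by library, with 95% Poisson intervals and open triangles for 0 UMIs at the level of 3 UMIs. Right, share (%) of endothelial-marker cells with a Gzmk UMI, with or without an Esm1 UMI, with 95% Clopper-Pearson intervals; in CPM, Gzma, Prf1 and Eomes are lower in the NK cells with the markers, and the Gzmk share is higher in the cells with Esm1, in both libraries.

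The genes around the program were followed by lists. Their counts stand beside the shares of all eligible genes, given again here: 4.75% higher and 4.38% lower in haplodeficient CD8 cells, 3.52% and 4.63% in CD4, 4.39% and 4.20% in other Cd3e and 7.12% and 3.81% in NK cells. Of 17 genes of granule loading and release, 11, 12, 11 and 9 were eligible in CD8, CD4, other Cd3e and NK cells, and 0, 0, 3 and 1 were higher in the haplodeficient library and none lower. The 3 in other Cd3e cells were the cathepsins Ctsc, which activates granzymes (65.6 to 138 CPM), and Ctsw (63.4 to 147 CPM), and Sytl2, a vesicle docking protein (94 to 219 CPM). In NK cells it was Lamp1, a granule membrane protein (139 to 441 CPM), with 9 control UMIs. Macrophage and monocyte markers went from 46.3 to 4770 CPM in the same class, and their part in the Lamp1 ratio was not tested. Of 7 other granzyme genes 0 were eligible in any class. Of 5 protection genes, 4, 2, 3 and 3 were eligible and Serpinb9, an inhibitor of granzyme B, was higher in other Cd3e cells (39.3 to 85.1 CPM). It had 18 control UMIs there and reached the minimum level through the haplodeficient library. In CD8 and NK cells Serpinb9 ran the other way, under the 2-fold rule, with ratios of 0.609 (0.438 to 0.867) and 0.51 (0.357 to 0.739). Its ratio in CD4 cells was 1.46 (0.662 to 3.8).

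Of 12 genes of the interferon gamma pathway, 9, 10, 9 and 8 were eligible in CD8, CD4, other Cd3e and NK cells. The receptors Il12rb2 and Il18r1, which take up the signals that induce Ifng, were lower in haplodeficient CD8 and NK cells. Il12rb2 went from 212 to 58 CPM in CD8 cells and from 463 to 171 CPM in NK cells, and Il18r1 from 169 to 60.2 CPM and from 371 to 174 CPM. Irf1 was higher in CD8 cells, from 67.7 to 161 CPM. Tnf, a death receptor ligand, was higher in all 3 T-cell classes: 38.1 to 134 CPM in CD8, 44.6 to 346 CPM in CD4 and 19.7 to 200.2 CPM in other Cd3e cells. Of 10 genes of death ligands and receptors, 4, 3, 4 and 0 were eligible, and Tnfsf10 (TRAIL) was the other one past the rule, in CD8 cells (29.6 to 79.4 CPM). Control Tnf rested on 9 UMIs in CD8, 7 in CD4 and 9 in other Cd3e cells, and control Tnfsf10 on 7 in CD8 cells. Both reached the minimum level through the haplodeficient library.

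Of 20 NK and killer lectin receptors, 8 were eligible in CD8 cells and 4 were lower in the haplodeficient library, with 0 higher: Klrk1 (157 to 74.5 CPM), Klrc1 (97.4 to 20.1 CPM), Klrc2 (93.1 to 21 CPM) and Cd244a (72 to 29 CPM). Klrc1, Klrc2 and Cd244a reached the minimum level through the control, on 23, 22 and 17 UMIs, so nothing is read from that count. Genes of this list under the minimum ran both ways in CD8 cells. Klra7 went from 4.23 to 47.7 CPM and Klrb1c from 12.7 to 0.892 CPM. In NK cells Klra4 of 14 eligible was lower, and in other Cd3e cells Klra7 of 4 was higher, from 0 UMIs to 373. Klra7 reached the minimum level there through the haplodeficient library, so nothing is read from that count. The Klra and Klrc genes are families of near-identical copies between which reads can be split. Of the 5 effector chemokines, 3, 4, 3 and 3 were eligible. Xcl1 was higher in CD4 cells (95.5 to 419 CPM) and other Cd3e cells (19.7 to 238 CPM), and Ccl3 in CD4 cells (6.37 to 143 CPM). Ccl4 was higher in the 3 T-cell classes, from 271 to 610.4 CPM in CD8 cells, and Ccl5 in other Cd3e cells (472 to 2257 CPM) and NK cells (2919 to 6252 CPM). In NK cells Ccl4 ran the other way, from 1066 to 537 CPM, a ratio of 0.504 (0.376 to 0.68), and did not pass the rule at a log2 ratio of -0.98. Several control values rested on few UMIs. Xcl1 had 9 in other Cd3e cells, Ccl3 had 1 in CD4 cells, and Ccl4 had 0 in CD4 and 10 in other Cd3e cells. In these classes the 3 genes reached the minimum level through the haplodeficient library. Of the 12 dissociation stress genes, of which 10, 10, 11 and 11 were eligible, 6, 6, 2 and 3 were higher in CD8, CD4, other Cd3e and NK cells and none lower, among them Fos in CD8 cells (313 to 1353 CPM) and Atf3 in other Cd3e cells (476 to 1452 CPM).

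Of 10 effector transcription factors, 5, 7, 5 and 4 were eligible in CD8, CD4, other Cd3e and NK cells. Hopx was higher (50.3 to 122 CPM) and Zeb2 lower (399.9 to 160.4 CPM) in haplodeficient other Cd3e cells, and 0 passed the rule in the other classes. Of 9 genes of memory and homing, 5, 7, 5 and 5 were eligible. The naive-cell factor Lef1 was lower in CD8 cells (139.7 to 57.1 CPM) and other Cd3e cells (96.2 to 33.5 CPM) and Bach2 in CD8 cells (174 to 79.4 CPM), while Id3 and Klf2 were higher in CD4 cells (44.6 to 134 and 146 to 316 CPM). Of 8 genes of tissue residence, 7 were eligible in other Cd3e cells, where Rgs2 was higher (52.5 to 168 CPM), beside Xcl1, which this list shares. Of 14 cytokines, receptors and costimulators that feed killer cells, 3, 3, 2 and 1 were eligible and 0 passed the rule: Il21r was at 254 and 139 CPM and Cd27 at 76.2 and 124 CPM in CD8 cells. Of 10 cell cycle genes, 7, 6, 3 and 0 were eligible, and 3 were lower in CD8, 3 in CD4 and 1 in other Cd3e cells, with Mki67 lower in each of these (161 to 60.6, 312 to 45.8 and 76.5 to 27.2 CPM).

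The genes whose level was most like the summed program were Ctsw (Pearson r of 0.984), AW112010 (0.980), Ccl5 (0.978), Ifngr1 (0.977) and Ms4a4b (0.974). The measure was the correlation of log2 CPM, with 5 CPM added, over 12 points, the 4 classes, other leukocytes and other cells in each library, among 9677 genes of at least 10 CPM on average. The points of a library share its depth and cell-free RNA, and the contrast of lymphocytes with other cells spans most of their range. Ctsw was at 326 and 364 CPM in CD8, 247 and 327 CPM in NK, 108 and 135 CPM in CD4 and 63.4 and 147 CPM in other Cd3e cells. Of the 10 genes themselves, Nkg7 followed their sum with r of 0.993 and Tbx21 with 0.978, and Gzmk with 0.529. Each of the 10 is part of that sum, and Nkg7 a large part. These values are therefore in part fixed in advance and are not set against those of the genes above.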

How the data were processed

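Each library was deposited by the authors as a matrix of raw UMI counts per gene and barcode, made with 10x 3′ v3.1 chemistry per the labels' protocols and with Cell Ranger 4 per the file headers, on mm10 per the submitters' processing notes. The libraries held 134190236 and 114668145 UMIs. Of 32285 gene IDs, 32158 matched GENCODE M21, which gave positions.

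Barcodes that reached 500 UMIs and 200 genes and held 50% mitochondrial UMIs or less were kept, without doublet removal, and classed by UMIs of Cd3e, Cd8a, Cd8b1, Cd4 and Ncr1. UMIs were summed per library and class and divided by their total for CPM. With 1 library per group no test was run. Intervals are 95%: exact Poisson for levels, conditional binomial for ratios and Clopper-Pearson for shares. They cover counting error only.

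The size rule is a mean of at least 50 CPM and 30 UMIs, a 2-fold difference with 5 CPM added, and intervals that do not overlap. All 10 genes are named; of the 13 other lists, the genes past the rule, or else the highest 2. The genes, lists and classes were chosen with earlier results of these data known. Alternatives were doublet removal (Scrublet), stricter barcode limits, other class rules, other scalings, thinning to 1000 or 500 UMIs, 1 CPM added and other level minimums. Leaving out barcodes with more UMIs of another cell type, or the cell with the most UMIs of a gene, was added after seeing the data. Python 3.11.15, numpy 2.4.6, scipy 1.17.1, pandas 2.3.3, scanpy 1.11.5 and matplotlib 3.10.9 were used.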

Additional observations from a re-analysis of the deposited data

How the results depend on the processing

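Over the alternatives that change cells, scaling or the CPM added, 57 of 60 recomputed ratios of the genes past the size rule stayed past it, 0 reversed and 3 did not stay, all after thinning cells to 1000 UMIs: Gzmb in CD8 (-0.80) and NK cells (-1.03) and Ifng in CD4 cells (1.36). Of 340 ratios not past it, 3 came past it, all in other Cd3e cells without barcodes with more UMIs of another cell type: Gzma 5.11, Fasl 1.61 and Tbx21 1.24. With no minimum level, or with 10 CPM and 10 UMIs, the genes of the 10 past the rule went from 2 to 6 higher in other Cd3e and from 0 to 1 lower in CD4 cells. Without the fullest cell of the higher library, 5 of the 6 ratios past the rule stayed past it and that of Gzmb in NK cells (-0.89) did not. The log2 ratio of the 10 genes' summed CPM in CD8 cells was -0.37, and was -0.19 with T cells taken by Cd3e, Cd3d or Cd3g, -0.05 thinned and -0.03 without those barcodes. In CD4 cells it was 0.28, and was -0.04 without Scrublet doublets, 0.74 with 2 co-receptor UMIs and 1.03 thinned. In other Cd3e cells it was 1.89, and 1.19 and 1.46 under the last pair. In NK cells it was -0.19, and was -0.37 at 25% mitochondrial UMIs, -0.40 with cells of any Cd3 UMI left out, 0.13 thinned and 0.28 without those barcodes. The median over eligible genes of the 10 in NK cells turned from -0.27 to 0.21 thinned and 0.33 without those barcodes, and that of all eligible genes from 0.11 to -0.05 with mitochondrial and ribosomal protein genes out of the total. Genes past the rule numbered 300 in CD8, 273 in CD4, 313 in other Cd3e and 215 in NK cells. They numbered 87, 47, 116 and 20 thinned, and 138, 144, 156 and 37 without those barcodes. With no minimum level they numbered 719, 538 and 942 in the 3 T-cell classes, and 675, 464 and 824 with 10 CPM and 10 UMIs. Thinned, the genes lower in NK than CD8 cells went from 1 to 0 and those higher in NK than CD4 cells from 3 to 1. Thinning leaves fewer UMIs. The other causes were not tested. No paired analysis was possible because each group is 1 library.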
